A study of Homo sapiens with 9 samples.

Results

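The 7 genes described here encode the machinery that makes sterol regulatory element-binding proteins (SREBPs) and releases them from the endoplasmic reticulum (ER) membrane. They are SREBF1 and SREBF2, SCAP, INSIG1 and INSIG2, and MBTPS1 and MBTPS2, taken by name from a table of 19317 genes, and all 7 were among the 13636 genes with enough counts to be tested. RNA was sequenced from HepG2, an established line of human hepatocellular carcinoma cells, in 3 groups of 3 samples. DNL cells, the lipogenic steatosis model, spent 1 week in DMEM to which insulin (10 µg/ml) and T0901317 (10 µM) were added, the second a synthetic agonist of the liver X receptors (LXR). OA cells, the fatty acid steatosis model, had 6 hours in DMEM with 25 µM oleic acid in 11% albumin. WT cells, the controls, had neither and were kept in RPMI. All media held 10% serum and 1% antibiotics. The cells are 1 tumour line of unmodified genotype per the labels, and no sample received albumin alone. The models share a medium but differ in agents and duration, and each differs from WT in medium as well.

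SREBPs are made as membrane proteins of the ER and travel bound to SCAP, a sterol-sensing escort. When sterols are plentiful, the INSIG proteins hold SCAP in the ER, and when sterols run low, SCAP carries its cargo in coated vesicles to the Golgi, where the site-1 protease (MBTPS1) and then the site-2 protease (MBTPS2) free the part that enters the nucleus. In liver, products of SREBF1 act mainly on genes of fatty acid synthesis, the product of SREBF2 acts mainly on genes of sterol synthesis, and transcription of SREBF1 is itself driven by LXR and insulin. RNA levels were measured here, so neither cleavage nor nuclear protein is seen.

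Promoter windows are shown for 4 of the genes, because these differ in the motifs they hold and in how their RNA levels differed between the groups. They come from RefSeq on GRCh38.p14 and run from 250 bases before to 50 bases after a transcript start, with position 0 the first transcribed base. Capitals mark matches, on either strand, to TCACCCCAC (the sterol regulatory element), CACGTG (the E-box), CCAAT (the box bound by NF-Y) and GGGCGG (the GC box bound by Sp1).
SREBF2, chr22:41832855-41833154, plus strand: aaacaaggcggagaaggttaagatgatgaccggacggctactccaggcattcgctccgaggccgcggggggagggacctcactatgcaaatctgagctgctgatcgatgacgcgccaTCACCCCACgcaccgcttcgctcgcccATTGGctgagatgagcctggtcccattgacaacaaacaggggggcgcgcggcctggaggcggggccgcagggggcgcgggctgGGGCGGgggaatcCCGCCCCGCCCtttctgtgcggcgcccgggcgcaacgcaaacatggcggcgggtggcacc
SREBF1, chr17:17836937-17837236, minus strand: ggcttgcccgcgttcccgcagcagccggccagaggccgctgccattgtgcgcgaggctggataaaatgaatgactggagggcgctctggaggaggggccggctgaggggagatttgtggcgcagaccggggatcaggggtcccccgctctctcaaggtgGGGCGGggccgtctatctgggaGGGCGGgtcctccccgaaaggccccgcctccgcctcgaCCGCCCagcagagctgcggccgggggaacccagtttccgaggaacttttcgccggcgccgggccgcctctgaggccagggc
INSIG1, chr7:155297628-155297927, plus strand: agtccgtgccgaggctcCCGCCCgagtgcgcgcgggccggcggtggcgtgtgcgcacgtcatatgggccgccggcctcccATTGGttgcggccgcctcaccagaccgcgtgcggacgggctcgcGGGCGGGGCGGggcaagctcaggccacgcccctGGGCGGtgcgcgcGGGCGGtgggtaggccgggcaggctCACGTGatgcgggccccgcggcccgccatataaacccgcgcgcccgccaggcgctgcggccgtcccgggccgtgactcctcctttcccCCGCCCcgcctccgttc
MBTPS2, chrX:21839367-21839666, plus strand: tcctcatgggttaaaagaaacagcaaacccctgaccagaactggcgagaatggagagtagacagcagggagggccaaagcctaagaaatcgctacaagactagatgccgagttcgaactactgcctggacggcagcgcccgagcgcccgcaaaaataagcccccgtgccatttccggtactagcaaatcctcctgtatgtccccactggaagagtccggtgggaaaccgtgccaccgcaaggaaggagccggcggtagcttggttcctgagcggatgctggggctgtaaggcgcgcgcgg

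The SREBF2 window held the sterol element from position -133 to -125 on its own strand, with an inverted CCAAT box from -106 to -102. That made 1 of 8 windows, 8 because INSIG2 has 2, against 0.430% of all 35116 windows in the table, and the looser form TCACNCCAC added none among the 7 genes and stood in 1.13% of all. An E-box lay in the SCAP window from -58 to -53 and in the INSIG1 window from -55 to -50, so in 2 of 8, against 7.26% of all. CCAAT was found in the SREBF2 and INSIG1 windows, against 34.6% of all, and GC boxes in 6 of 8, against 45.0%, with both INSIG2 windows holding the same box. The MBTPS1 and MBTPS2 windows had no match to any of these. The direct repeat bound by LXR, AGGTCA given again after 4 bases, was in 0 of 8 windows and in 0.0199% of all. These are matches of letters within 300 bases, and all 7 genes have further annotated starts. SREBF1 has 23, and only 1 window, at the 5' end of the gene, was searched. The absence of the LXR repeat from that window says nothing about SREBF1 starts outside it.

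**Figure D1:**
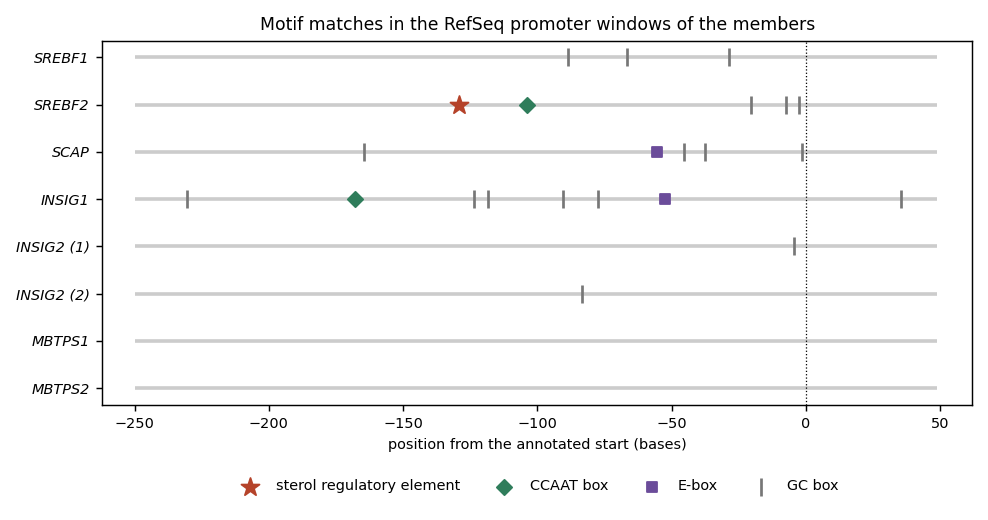
Motif matches in the promoter windows of the 7 genes, by distance in bases from the transcript start (x axis), with 1 row per window and 1 symbol per motif. The sterol element is seen in the SREBF2 row alone, the E-boxes of SCAP and INSIG1 lie at nearly the same distance, and the rows of MBTPS1 and MBTPS2 are empty.

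DNL libraries held 16447398 to 36147431 estimated counts, OA libraries 7836520 to 28636903, and WT libraries 26425694 to 43043347. All 9 hepatocyte markers checked, albumin and HNF4A among them, were detected in every group, and their summed level, scaled for library size (CPM), was 22970 to 23620 in DNL, where OA had 5505 to 5912 and WT had 13490 to 13970. The sum hides a split in DNL. At an adjusted p under 0.05, 7 markers were higher in DNL than in WT and 1, HNF4A, was lower (1.18-fold). OA had 8 below WT and 0 above. The 6 fibroblast markers summed to 3.16 to 3.39 CPM in DNL, where OA had 36.7 to 875 and WT had 10.7 to 14.9, and COL1A2 and LUM were at 0 in DNL and WT. COL1A1 and COL3A1 were higher in OA than in WT, while PDGFRB was lower in OA and in DNL. The 4 endothelial markers summed to 5.27 to 6.92 CPM in DNL, where OA had 0.922 to 2.14 and WT had 1.52 to 1.96. Both that could be tested, PECAM1 and VWF, were higher in DNL than in WT, while KDR was at 0 in DNL and WT and CDH5 at 0 in OA. The 5 leukocyte markers summed to 35.9 to 41.5 CPM in DNL, where OA had 40.1 to 53.4 and WT had 42.8 to 45, with CD163 at 0 in every library and CSF1R at 0 in DNL and WT. Of these, CD14 was higher and CD68 lower in DNL than in WT, and CD14 was lower in OA than in WT. Mitochondrial transcripts took 5.28% to 6.65% of DNL counts, 3.20% to 3.58% of OA counts and 2.92% to 3.55% of WT counts. The part of these differences in the results below was not tested, and in such bulk samples fewer cells of a type and less RNA per cell cannot be told apart.

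Of the 7 genes, 5 were higher and 1 was lower in DNL than in WT at an adjusted p under 0.05 (edgeR's quasi-likelihood test, Benjamini-Hochberg adjustment over all genes), where 53.8% of all genes tested passed, 27.1% higher and 26.8% lower. OA against WT had 2 higher and 4 lower, where 60.0% of all genes passed, 30.4% higher and 29.7% lower. DNL against OA had 5 higher and none lower, where 62.8% of all genes passed, 31.9% higher and 30.9% lower. A call and a difference of at least 1.5-fold came together for 4 of the 7 in DNL against WT, all higher, as for 24.9% of all genes in either direction and 13.1% higher. The same held for 1 gene higher and 1 lower in OA against WT, as for 32.4% of all genes and 16.3% higher, and for 2 genes, both higher, in DNL against OA, as for 37.3% of all genes and 19.1% higher. The 3 libraries of each group did not overlap for 5 of the 7 in DNL against WT, 6 in OA against WT and 5 in DNL against OA, and for 64.7%, 65.7% and 66.2% of all genes. The counts without overlap in DNL against WT and in DNL against OA lie near their backgrounds. The 5 of 7 genes higher in DNL, in either comparison, lie above theirs. So do the 4 of 7 higher by 1.5-fold in DNL against WT and the 4 of 7 lower in OA against WT. With 7 genes each count is coarse, none was tested against its background, and the sizes below say more than the calls. The median log2 fold change of the 7 was 0.61 in DNL against WT, -0.24 in OA against WT and 0.51 in DNL against OA, and over all genes it was -0.02, -0.03 and 0.01. Scaling matters for DNL, since with library totals in place of the trimmed mean of M values (TMM) the median of all genes was -0.18 in DNL against WT and -0.22 in DNL against OA, and the share of called genes that were higher was 32.2% and 33.9%, against 50.3% and 50.8% with TMM. The median of the 7 genes was then 0.44 in DNL against WT and 0.28 in DNL against OA.

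SREBF1 encodes SREBP-1a and SREBP-1c and lies on chromosome 17 (GRCh38, 17810399 to 17837002, minus strand, GENCODE release 29 as for all gene positions below). Its level was 317, 316 and 297 CPM in DNL, 58.1, 55.2 and 57.8 CPM in OA, and 80.1, 77.2 and 78.6 CPM in WT. Every DNL library lay far above every other library, and every OA library lay below every WT library. SREBF1 was 3.94-fold higher in DNL than in WT (309.9 ± 11.1 CPM against 78.6 ± 1.44 CPM, SD, n = 3 each, log2 fold change 1.98, SE 0.0442, adjusted p = 2.98e-12). Only 3.80% of all genes tested had a larger log2 fold change, of either sign, in that comparison. In OA, at 57.1 ± 1.62 CPM, it was 1.38-fold lower than in WT (log2 fold change -0.47, SE 0.0461, adjusted p = 1.73e-06). DNL stood 5.45-fold above OA (log2 fold change 2.45, SE 0.0468, adjusted p = 4.61e-13). The annotation lists 23 transcripts of SREBF1, each with its own start, and values per gene do not separate SREBP-1a from SREBP-1c. RAI1 lies on the opposite strand over part of SREBF1, and whether the authors' counting used strand is not given in the sources used here.

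SREBF2, on chromosome 22 (41833079 to 41907308, plus strand), encodes SREBP-2. Its level was 348, 363 and 383 CPM in DNL, 259.5, 286 and 278 CPM in OA, and 225, 245 and 233 CPM in WT. The 3 groups did not overlap, and unlike SREBF1, SREBF2 was above WT in both models. It was 1.55-fold higher in DNL than in WT (log2 fold change 0.64, SE 0.0502, adjusted p = 2.76e-07) and 1.17-fold higher in OA than in WT (log2 fold change 0.23, SE 0.0507, adjusted p = 0.00163). DNL was 1.33-fold above OA (log2 fold change 0.41, SE 0.0507, adjusted p = 1.2e-05), and with library totals alone this log2 fold change was 0.18 (adjusted p = 0.0115). This is the gene whose window above carries the sterol element, and whether the element has a part in these levels was not tested.

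The count of SREBF1 over that of SREBF2 within a library was 0.91, 0.87 and 0.776 in DNL, 0.224, 0.193 and 0.208 in OA, and 0.356, 0.315 and 0.337 in WT. The ratio is not corrected for length, so its change between groups is what can be read, and it does not depend on how libraries are scaled. It was 2.53-fold higher in DNL than in WT and 1.61-fold lower in OA than in WT, with no overlap between groups. The exact two-sided permutation test gave p = 0.1 for each (adjusted p = 0.12 over 12 tests of ratios), which is the smallest p that 3 samples against 3 allow.

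SCAP, the escort (chromosome 3, 47413694 to 47477126, minus strand), varied little. It had 97.9, 108 and 123 CPM in DNL, 101, 98.2 and 100.1 CPM in OA, and 123, 128 and 121 CPM in WT. The OA libraries all lay below the WT libraries, while the DNL libraries spread from OA levels to WT levels. SCAP was 1.24-fold lower in OA than in WT (log2 fold change -0.31, SE 0.0698, adjusted p = 0.00177). In DNL against WT the log2 fold change was -0.18 (SE 0.0685, adjusted p = 0.0433), a call that was kept under 7 of 16 alternative settings and lost, among others, with DESeq2 (adjusted p = 0.0586) and without DNL replicate 1 (adjusted p = 0.264). The value without that replicate was -0.09, and with library totals alone it was -0.34. The call was also lost without DNL replicate 2, OA replicate 2 or any of the 3 WT replicates, with adjusted p between 0.0536 and 0.132. DNL against OA gave 0.13 (SE 0.0704, adjusted p = 0.116), with the sign turned round when libraries were scaled by their totals alone (-0.10).

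**Figure D2:**
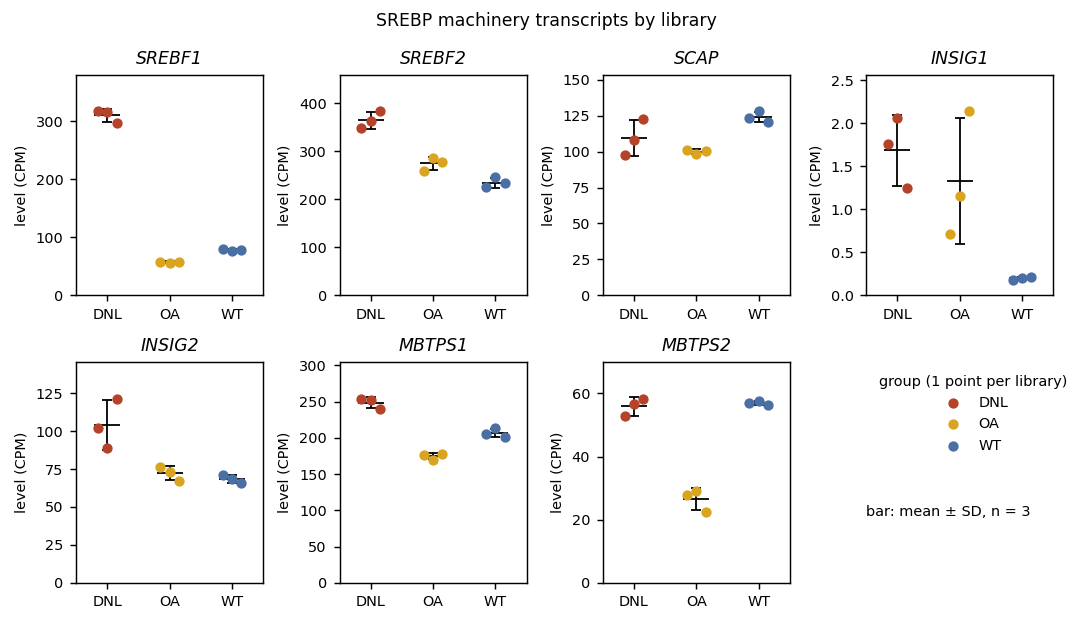
Level of each gene in CPM (y axis, linear, own scale per panel) in the DNL, OA and WT samples, with 1 point per library and the bar giving the mean and SD of 3. SREBF1 stands far higher in DNL than elsewhere, MBTPS2 is low in OA alone, and INSIG1, with no library above 2.14 CPM, is lowest in WT.

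INSIG1, an ER anchor of SCAP that is itself a known SREBP target, lies on chromosome 7 (155297776 to 155310235, plus strand) and was barely detected. Its level was 1.75, 2.06 and 1.25 CPM in DNL, 0.711, 1.15 and 2.14 CPM in OA, and 0.184, 0.203 and 0.22 CPM in WT. These rest on estimated counts of 57, 31 and 30 in DNL, 9, 35 and 18 in OA, and 8, 6 and 6 in WT. All libraries of both models lay above all WT libraries, and DNL and OA overlapped. INSIG1 was 8.18-fold higher in DNL than in WT (log2 fold change 3.03, SE 0.463, adjusted p = 0.00011) and 6.25-fold higher in OA than in WT (log2 fold change 2.65, SE 0.48, adjusted p = 0.000369). DNL against OA did not pass (log2 fold change 0.39, SE 0.416, adjusted p = 0.44). Within OA, the fibroblast gene COL1A1 had 19.4, 85 and 537 CPM in the same libraries, the same order as INSIG1, and its part in the INSIG1 values was not tested. An order over 3 libraries is easily shared, and how many of all genes share it is not given here. A low value in this table may also be a property of the estimate. POLR2A, the largest subunit of RNA polymerase II and a gene every cell uses, chosen after its values were seen, had counts of 1556, 13 and 518 in DNL and was listed at 0 in all OA and WT libraries. Whether the same applies to INSIG1 was not tested.

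INSIG2, the other anchor (chromosome 2, 118088452 to 118110997, plus strand), was well detected. It had 102, 88.7 and 121 CPM in DNL, 76.3, 73.3 and 67.2 CPM in OA, and 71.4, 68.2 and 65.8 CPM in WT. The DNL libraries were all the highest, and OA overlapped WT. INSIG2 was 1.52-fold higher in DNL than in WT (log2 fold change 0.61, SE 0.0957, adjusted p = 0.000218) and 1.44-fold higher in DNL than in OA (log2 fold change 0.52, SE 0.0981, adjusted p = 0.000571), or by 0.29 on the log2 scale with library totals alone. OA against WT gave a log2 fold change of 0.08 (SE 0.098, adjusted p = 0.499). The ratio of the INSIG1 count to that of INSIG2 averaged 0.0169 ± 0.0065 in DNL, 0.0189 ± 0.0116 in OA and 0.00296 ± 0.00038 in WT (n = 3, ± SD). Both models lay above WT without overlap (exact two-sided permutation p = 0.1, the smallest possible, adjusted p = 0.12), and they overlapped each other (exact p = 1). The ratio of INSIG1 to SCAP behaved alike, 9.3-fold above WT in DNL and 7.41-fold in OA, and carries the same limit of few INSIG1 counts.

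MBTPS1 encodes the site-1 protease, which makes the first cut in the SREBPs (chromosome 16, 84053761 to 84116906, minus strand). It had 254, 252 and 240.3 CPM in DNL, 177, 169.6 and 178 CPM in OA, and 205, 213.5 and 202 CPM in WT. The 3 groups did not overlap, with DNL highest and OA lowest. MBTPS1 was 1.2-fold higher in DNL than in WT (log2 fold change 0.27, SE 0.0406, adjusted p = 0.000107), and 1.18-fold lower in OA than in WT (log2 fold change -0.24, SE 0.0413, adjusted p = 0.000205). The first of these was not called when libraries were scaled by their totals alone (log2 fold change 0.10, adjusted p = 0.0532). DNL against OA gave 0.51 (SE 0.0415, adjusted p = 2.08e-07), and 0.28 with library totals alone.

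MBTPS2 encodes the site-2 protease, which makes the second cut within the membrane (chromosome X, 21839636 to 21885424, plus strand). It had 52.7, 56.5 and 58.3 CPM in DNL, 27.9, 29.2 and 22.6 CPM in OA, and 56.8, 57.5 and 56.4 CPM in WT. DNL and WT overlapped, and every OA library lay far below both. MBTPS2 was 2.11-fold lower in OA than in WT (26.6 ± 3.54 CPM against 56.9 ± 0.581 CPM, SD, n = 3 each, log2 fold change -1.08, SE 0.084, adjusted p = 1.89e-07), and 17.1% of all genes had a larger log2 fold change in that comparison. DNL was 2.07-fold above OA (log2 fold change 1.05, SE 0.0847, adjusted p = 1.96e-07). DNL against WT gave -0.03 (SE 0.0787, adjusted p = 0.781). YY2, a separate gene within MBTPS2 on the same strand, could share reads with it.

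The count of MBTPS1 over that of MBTPS2 was 4.83, 4.46 and 4.12 in DNL, 6.34, 5.8 and 7.86 in OA, and 3.61, 3.71 and 3.58 in WT. All OA libraries lay above all DNL libraries, which lay above all WT libraries. The ratio was 1.82-fold higher in OA than in WT and 1.23-fold higher in DNL than in WT (exact two-sided permutation p = 0.1 for each, the smallest possible, adjusted p = 0.12).

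**Figure D3:**
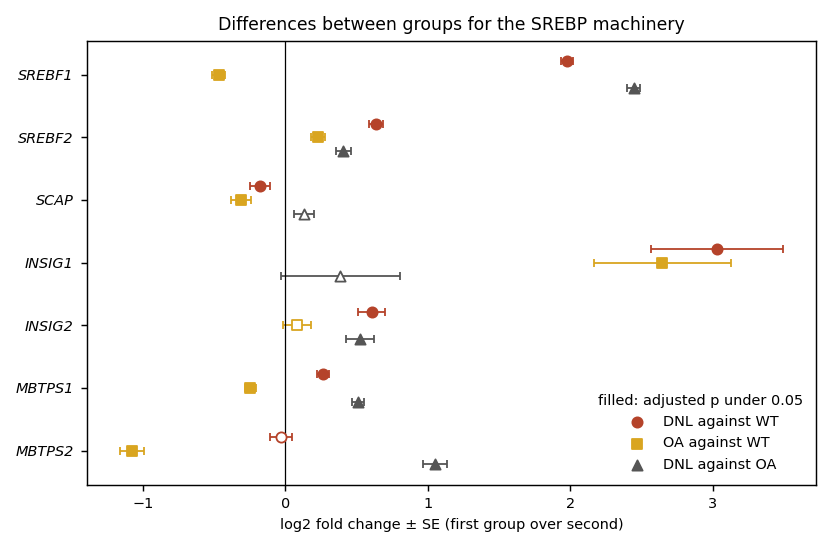
Log2 fold change of each gene (x axis) in the 3 comparisons, with points for the estimate, filled where the adjusted p was under 0.05, and bars for 1 SE on either side. SREBF1 and INSIG1 are furthest right in DNL against WT, MBTPS2 is furthest left in OA against WT, and the wide bars are those of INSIG1.

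**Figure D4:**
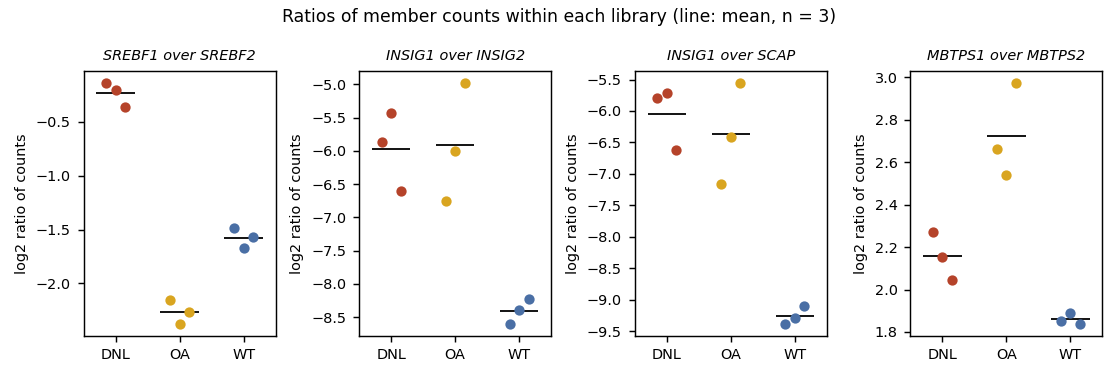
Log2 of the ratio of counts of 2 genes within each library (y axis, own scale per panel) in the DNL, OA and WT samples, with 1 point per library and a line at the mean of 3. SREBF1 over SREBF2 is highest in DNL and lowest in OA, while MBTPS1 over MBTPS2 is highest in OA.

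Levels of different genes were set side by side per kilobase of annotated exon. The length used is 1 value per gene, such as 10238 bases for MBTPS1 with 16 transcripts and 8030 for SREBF1 with 23. It is not the length of the transcripts present in these cells, so the order depends on the annotation. On that scale SREBF2 was the highest of the 7 in every group, with 48.3 ± 2.32 CPM per kilobase in DNL, 36.4 ± 1.82 in OA and 31 ± 1.36 in WT (n = 3, ± SD). SREBF1 came second in DNL, at 38.6 ± 1.39 CPM per kilobase, and only the fifth in both OA, at 7.1 ± 0.201, and WT, at 9.79 ± 0.179. SCAP, INSIG2 and MBTPS1 held the middle of the order. Of these, INSIG2 and MBTPS1 overlapped in DNL and in OA, and MBTPS1 and SCAP overlapped in WT, so their order is not settled there. MBTPS2 came next to last and INSIG1 last in every group, with INSIG1 at 0.462 ± 0.113 CPM per kilobase in DNL, 0.365 ± 0.2 in OA and 0.0554 ± 0.00484 in WT.

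Among 10098 other genes averaging 5 CPM or more, those whose log2 level followed SREBF1 most closely over the 9 samples included PLOD1, CHST15, TF and L1CAM, with Pearson r between 0.998 and 0.999. For SREBF2 the 5 closest were GRN, NKD1, SERPINB9, CCNI and TMEM209, with r between 0.985 and 0.998. For INSIG1, compared with 10099 genes, the 5 closest were ITGA3, CNST, SPARC, ATP6V1F and KCTD11, with r between 0.967 and 0.987. Before the log, 0.5 CPM was added, which is more than the WT level of INSIG1 (0.202 CPM). Its r values therefore rest in part on that constant and on few counts. Among the 7 themselves, r ran from -0.711 for SCAP and INSIG1 to 0.94 for SREBF1 and MBTPS1, so they did not all move together. SREBF1 and SREBF2 gave 0.833 and SREBF2 and INSIG2 gave 0.877, while SREBF1 and SCAP gave 0.055 and INSIG1 and MBTPS2 gave -0.380. The 9 samples share 3 treatments, so these values mostly restate the differences between groups and carry no p.

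The wider pathway was taken as 8 lists, whose counts are to be read against the shares of all genes called higher or lower given above. The comparisons with WT share the same WT samples.

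Of 11 genes of the coat that carries SCAP out of the ER, with the Golgi anchor PAQR3, OA had 9 above WT and 1 below, with a median log2 fold change of 0.66. SEC24D, a cargo adaptor of the coat, had 313 ± 25.9 CPM in OA against 146 ± 5.93 CPM in WT (2.15-fold, adjusted p = 7.25e-09). SEC24A, an adaptor that binds SCAP, was 1.81-fold higher in OA (292 ± 16.4 CPM against 161 ± 5.22 CPM in WT), and SAR1B, a GTPase that starts coat assembly, was 1.56-fold lower. In DNL against WT 6 were higher and 3 lower, a split that became 2 and 4 with library totals alone. SEC13, a subunit of the outer coat, was 1.61-fold higher and SEC24A 1.25-fold higher in DNL, while SEC24D was 1.94-fold lower and SEC23B 1.35-fold lower. Set against OA, DNL had 2 higher and 8 lower.

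Of 12 genes that degrade INSIG proteins and other sterol-regulated ER proteins, DNL had 5 above WT and 4 below, and OA had 6 above and 4 below. With library totals alone these became 5 and 6 in DNL and 7 and 2 in OA, so the split in OA depends on the scaling. RNF145, an ER ubiquitin ligase that acts on SCAP in mouse liver, had 64.2 ± 4.23 CPM in DNL and 58.2 ± 9.94 CPM in OA against 32.2 ± 0.555 CPM in WT, 1.99-fold and 1.82-fold higher. SYVN1, another ER ubiquitin ligase, was 1.42-fold lower in DNL and 1.74-fold higher in OA than in WT. VCP, the ATPase that pulls proteins out of the membrane, was 2.2-fold higher in OA than in WT, and in DNL its log2 fold change against WT was -0.0045 (adjusted p = 0.947). ERLIN2, an ER membrane protein that binds INSIG-associated complexes, was 1.42-fold higher in DNL and 1.68-fold lower in OA. Its partner ERLIN1 was 1.79-fold lower in OA, and TMUB1, another member of the degradation complex, was 1.57-fold lower in DNL. Between the models, 3 were higher and 4 lower in DNL, or 3 and 8 with library totals alone.

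Of 13 genes that set the stability or the partners of SREBPs, OA had 10 above WT and none below (median log2 fold change 0.32). In DNL against WT 3 were higher and 2 lower, and 3 and 4 with library totals alone. SPRING1, a Golgi protein needed for site-1 protease activity, had 138 ± 4.88 CPM in DNL and 100.3 ± 7.63 CPM in OA against 49.4 ± 1.48 CPM in WT, 2.79-fold and 2.03-fold higher. LPIN1, a phosphatidate phosphatase that restrains nuclear SREBP in mouse cells, had 88.8 ± 1.92 CPM in DNL and 90.6 ± 3.13 CPM in OA against 34.5 ± 0.624 CPM in WT. LPIN1 was 2.57-fold and 2.62-fold higher. GSK3A, a kinase that marks nuclear SREBP for destruction, was 1.28-fold lower in DNL, and CRTC2, a coactivator of CREB, was 1.4-fold lower in DNL, a call lost without DNL replicate 2 (adjusted p = 0.05) or WT replicate 1 (adjusted p = 0.0559). Set against OA, DNL had 2 higher and 7 lower.

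The proteases also cut other proteins, and of 8 such genes 7 could be tested, CREB3L1 having too few counts. In DNL against WT 1 was higher and 5 lower (median log2 fold change -0.76). In OA against WT 2 were higher and 3 lower, a split that became 3 and 2 with library totals alone. CREB3L3, a liver transcription factor released from the ER by the same cuts, had 6.2 ± 0.667 CPM in DNL and 84.3 ± 1.56 CPM in OA against 18.1 ± 0.807 CPM in WT, and so was 2.89-fold lower in DNL and 4.66-fold higher in OA. DNL was 13.5-fold below OA (log2 fold change -3.75, adjusted p = 1.38e-12). GNPTAB, a phosphotransferase of the lysosomal sorting path, was 2.25-fold higher in DNL and 1.69-fold higher in OA than in WT. ATF6, a factor of the unfolded protein response, was 1.53-fold lower in DNL and 1.6-fold lower in OA, and CREB3L2 was 1.7-fold lower in DNL and 1.12-fold lower in OA, the last of these calls lost with library totals alone (adjusted p = 0.0588). Between the models, 1 was higher and 4 lower in DNL.

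Genes on which SREBPs act were higher in most cases. Of 20 genes of sterol synthesis DNL had 19 above WT and 1 below (median log2 fold change 1.65), and OA had 17 above WT and 2 below (median 1.15). DHCR7, the last reductase of the pathway, had 531 ± 13.1 CPM in DNL and 306 ± 21.7 CPM in OA against 120.5 ± 3.17 CPM in WT. HMGCS1, the synthase that makes HMG-CoA, was 4.04-fold higher in DNL and 2.47-fold higher in OA. PMVK, a kinase of the mevalonate path, was 1.41-fold lower in DNL and 1.8-fold lower in OA, and its DNL call was lost without DNL replicate 2 (adjusted p = 0.0588) or WT replicate 1 (adjusted p = 0.0611). Between the models, 17 were higher and none lower in DNL. Of 10 genes of fatty acid synthesis tested of 11 listed, ME1 having too few counts, DNL had 9 above WT and 1 below (median 1.82), OA had 6 above and 2 below (median 0.32), and all 10 were higher in DNL than in OA. FADS2, a desaturase, had 669 ± 22.5 CPM in DNL and 112 ± 6.41 CPM in OA against 42.8 ± 1.52 CPM in WT. SCD, another desaturase, was 12.1-fold higher in DNL than in WT. ACSS2, which makes acetyl-CoA, was 1.87-fold higher in OA than in WT, and ACACB, an acetyl-CoA carboxylase, was 1.76-fold lower. GPAM, which starts glycerolipid synthesis, was 1.74-fold lower in DNL and 5.2-fold lower in OA. So SREBF1 was lower in OA while the fatty acid list had more genes higher than lower there, and no test compares the gene with the list.

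**Figure D5:**
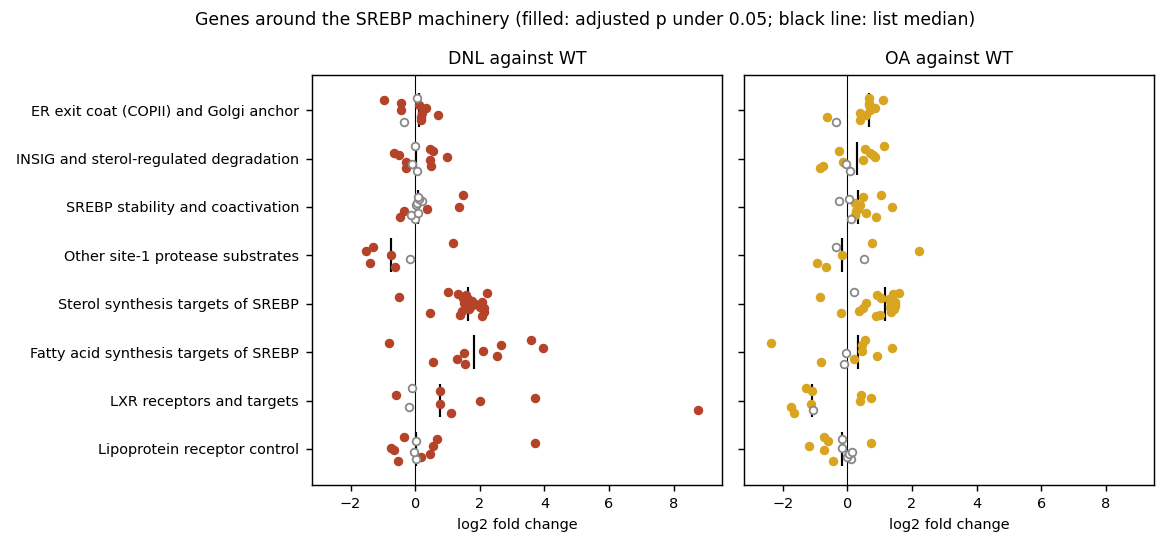
Log2 fold change (x axis) of every tested gene of the 8 lists (rows), for DNL against WT on the left and OA against WT on the right. Each point is 1 gene, filled where the adjusted p was under 0.05, and the black line is the median of the list, at 1.65 for sterol synthesis in DNL against WT and at -1.09 for LXR genes in OA against WT.

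Of 9 LXR genes, the receptors and their targets other than SREBF1, DNL had 6 above WT and 1 below (median log2 fold change 0.78), and OA had 3 above and 5 below (median -1.09). MYLIP, an LXR target and the ubiquitin ligase that sends lipoprotein receptors to lysosomes, had 59.8 ± 3.31 CPM in DNL and 7.49 ± 0.334 CPM in OA against 4.53 ± 0.228 CPM in WT, 13.2-fold and 1.65-fold higher. LPCAT3, a phospholipid acyltransferase, was 4.02-fold higher in DNL and 1.3-fold higher in OA. NR1H2, which encodes LXR-beta, was 1.52-fold lower in DNL. ABCA1, a cholesterol exporter, was 3.15-fold lower in OA, and SMPDL3A, a phosphodiesterase, was 2.43-fold lower. Set against OA, DNL had 8 higher and 1 lower.

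Of 12 genes that control lipoprotein receptors, MYLIP included again, DNL had 5 above WT and 4 below, or 3 and 5 with library totals alone, so no direction stands out. In OA against WT 1 was higher and 5 lower. LRP1, a large endocytic receptor, had 1552 ± 39.3 CPM in DNL and 462 ± 17.8 CPM in OA against 1061 ± 19.7 CPM in WT, 1.46-fold higher in DNL and 2.29-fold lower in OA. Between the models, 7 were higher and 1 lower in DNL, or 4 and 3 with library totals alone, where the median log2 fold change was 0.04 against 0.28 with TMM.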

How the data were processed

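Each deposited value is an estimated count for a gene. Per the submitters' processing notes, the authors ran kallisto 0.48.0 after FastQC 0.11.9, on GRCh38, and neither annotation release nor strand setting is given in the sources used here. The libraries were made from total RNA with a ribosomal depletion kit, per the labels' protocols. Sample titles gave the groups and each sample's own label gave its treatment, because a protocol field gives the DNL recipe for all 9. Estimated counts were rounded, filtered with filterByExpr, scaled by TMM and tested with edgeR 4.0.16 (robust quasi-likelihood fit, R 4.3.3) over all 9 samples with group as the only factor, with Benjamini-Hochberg adjustment over 13636 genes in each comparison. The fit's common estimate of variation between replicates beyond counting noise, shared by all genes, was a coefficient of variation of 10.6%. CPM are TMM-scaled, and SE was derived from the F statistic. Ratios of counts were tested by exact permutation of samples. Identifiers were matched to symbols for 19316 of 19317 genes. Whether replicates were separate cultures is not stated in the labels, and p-values reflect only how these samples spread, which may be technical. No pair of replicates agreed within sampling noise (chi-square per degree of freedom 5.46 to 16.7). The procedure was tested on simulated counts. Far fewer genes were changed there than were called here, so scaling under such wide change was not tested. The members and gene lists were chosen with earlier results of these data known. All 7 members are named. From each list, up to 2 genes called higher and up to 2 called lower against WT, those of smallest adjusted p, are named, and the most alike genes are the 5 with the highest Pearson r, and some genes that these rules select are not reported here. Alternatives were other scalings, no filter, DESeq2 1.42.0, limma-voom (limma 3.58.1), only the groups compared, a replicate block and leaving out each sample.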

Additional observations from a re-analysis of the deposited data

How the results depend on the processing

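Each fold change of the 7 genes was recomputed under 16 alternatives, 336 values in all, of which 323 kept their direction and their side of the threshold, 10 lost the call, 1 gained it and 2 turned round. The call of SCAP in DNL against WT accounted for 9 of the 10 lost. SCAP in DNL against OA turned to -0.10 with library totals alone and was called without DNL replicate 1 (0.22, adjusted p = 0.0107). MBTPS2 in DNL against WT turned to 0.025 without DNL replicate 1 (adjusted p = 0.84), and its values with 1 library left out ran from -0.063 to 0.025. The count of degradation genes called in DNL against OA was 11 with library totals alone, against 7. The cause was not tested. The number of the 7 genes called stayed within 1.5 times its value under every alternative. From main values of 6, 6 and 5, that limit cannot be passed upwards, and passing it downwards needs several calls lost at once. It is therefore a weak check.

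Ratios with few INSIG1 counts moved most. Leaving out 1 library, the log2 ratio of INSIG1 to INSIG2 in DNL against OA ran from -0.48 to 0.41, with 0.26 without DNL replicate 3 and 0.41 without OA replicate 3, and that of INSIG1 to SCAP ran from -0.062 to 0.74, with -0.062 without OA replicate 1.

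To look for pairing, the mean of its group was subtracted from each gene's log2 level, and samples of different groups were correlated on what remained. These correlations of deviations ran from -0.011 to 0.088 between same-numbered samples, and from -0.088 to 0.047 between differently numbered samples. The largest values, 0.088 for DNL 1 with WT 1 and 0.057 for DNL 3 with WT 3, were same-numbered. All were small, and they do not settle whether replicate numbers pair the samples. With the replicate number as a block, 7245, 8099 and 8472 genes were called in DNL against WT, OA against WT and DNL against OA, and all calls of the 7 genes were kept. Depth limits INSIG1 above all, where 3 counts equal 0.0691 CPM at the greatest depth and 0.356 CPM at the least.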
